A study of Mus musculus with 6 samples.

Results

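The IFIT genes encode interferon-induced proteins with tetratricopeptide repeats, a family of antiviral RNA-binding proteins. The genes described here are Ifit1, Ifit2, Ifit3 and Ifit1bl1, taken by name as members of the family. The family was chosen with earlier results of these data known. These genes are 4 of the 18193 that the arrays measured through a probe set annotated to a single gene. Lung endothelial cells (ECs) were profiled in female NSG mice. This strain has no T, B or NK cells but keeps macrophages and neutrophils, so every value below comes from a host without lymphocytes. The mice were 6 to 8 weeks old when MDA-MB-231-LM2 cells, a human breast cancer line that grows in the lung, were injected intravenously. Clodronate-liposomes, which kill the phagocytes that take them up, were given to one group and PBS-liposomes to the controls on days 14, 16 and 18, and lungs were taken on day 20. The labels round this time to 3 weeks. ECs were sorted as CD31-positive cells after exclusion of cells carrying CD45, CD11b, EpCAM, CD140a, CD140b or the tumor cells' GFP, and each of 3 arrays per group is called a biological replicate, without the number of mice behind it.

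IFIT proteins are built from helical repeats that fold around a pocket for RNA. IFIT1 holds the capped end of RNA whose first nucleotide lacks ribose methylation, as many viral RNAs do, and keeps the translation machinery from it. IFIT2 binds AU-rich RNA, and IFIT3 partners with the others and, in human cells, steadies IFIT1. Ifit1bl1 is a mouse paralogue of the Ifit1 kind. Type I interferon, sensed by its receptor, activates the transcription factor complex ISGF3, which binds the interferon-stimulated response element (ISRE) before the starts of IFIT genes. ECs respond to interferon as most cells do.

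The bases before the annotated starts are shown first, because the ISRE is the sequence through which these genes are known to answer interferon. Promoter windows of RefSeq (build GRCm38.p6), 250 bases before to 50 after each start, were searched on both strands for the ISRE letters GAAANNGAAA, which read TTTCNNTTTC on the other strand. Only the 250 bases before each start are printed, 5′ to 3′ on the gene's strand, with ISRE letters in capitals. All 4 genes lie on chromosome 19, and Ifit1bl1 and Ifit2 have 2 starts each in the RefSeq promoter table used, which may not hold every annotated start.

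Ifit1, chr19:34640639-34640888, plus strand: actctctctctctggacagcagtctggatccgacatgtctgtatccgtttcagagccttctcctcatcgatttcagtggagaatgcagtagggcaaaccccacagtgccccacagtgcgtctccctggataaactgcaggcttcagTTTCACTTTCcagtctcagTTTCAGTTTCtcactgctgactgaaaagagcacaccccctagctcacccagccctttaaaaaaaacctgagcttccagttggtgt
Ifit3, chr19:34583279-34583528, plus strand: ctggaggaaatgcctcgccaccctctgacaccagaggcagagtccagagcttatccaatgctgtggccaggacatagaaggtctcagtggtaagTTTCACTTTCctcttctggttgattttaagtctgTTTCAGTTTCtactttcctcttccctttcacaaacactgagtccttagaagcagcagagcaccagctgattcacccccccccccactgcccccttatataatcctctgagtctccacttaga
Ifit1bl1, start 2, chr19:34601969-34602218, minus strand: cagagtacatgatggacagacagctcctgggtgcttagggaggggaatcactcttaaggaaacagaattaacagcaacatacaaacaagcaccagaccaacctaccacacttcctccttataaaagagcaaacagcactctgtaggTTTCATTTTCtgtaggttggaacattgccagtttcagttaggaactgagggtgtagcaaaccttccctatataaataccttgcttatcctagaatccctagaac
Ifit1bl1, start 1, chr19:34599428-34599677, minus strand: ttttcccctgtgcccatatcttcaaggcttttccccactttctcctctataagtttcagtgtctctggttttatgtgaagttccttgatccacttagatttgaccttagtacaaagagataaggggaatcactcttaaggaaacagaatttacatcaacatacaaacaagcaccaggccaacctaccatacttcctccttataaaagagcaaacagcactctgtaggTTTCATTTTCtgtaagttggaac
Ifit2, start 1, chr19:34550444-34550693, plus strand: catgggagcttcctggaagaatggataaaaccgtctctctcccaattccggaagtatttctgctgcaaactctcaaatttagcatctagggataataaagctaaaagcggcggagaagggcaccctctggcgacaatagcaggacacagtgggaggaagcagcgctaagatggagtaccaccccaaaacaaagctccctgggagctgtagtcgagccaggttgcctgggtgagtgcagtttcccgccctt
Ifit2, start 2, chr19:34550838-34551087, plus strand: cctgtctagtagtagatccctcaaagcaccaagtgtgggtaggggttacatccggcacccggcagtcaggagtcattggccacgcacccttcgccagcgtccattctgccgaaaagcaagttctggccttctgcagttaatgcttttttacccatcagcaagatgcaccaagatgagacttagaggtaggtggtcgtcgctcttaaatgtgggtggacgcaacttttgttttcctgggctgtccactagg

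Ifit1 and Ifit3 each carried 2 matches, both on the strand opposite to the gene. They lay at -104 to -95 and -85 to -76 before the Ifit1 start, and at -156 to -147 and -122 to -113 before the Ifit3 start. Ifit1bl1 had 1 match before each start, at -104 to -95 from start 2 and at -23 to -14 from start 1. No ISRE letters were found in either Ifit2 window. Start 1 of Ifit2 had 1 match to TTCNNNGAA, the letters of the GAS element of interferon-responsive genes, at -241 to -233, and no ISRE and GAS letters overlapped in any IFIT window. Over all 32851 mouse promoter windows of this length, 3.44% held the ISRE letters, 0.225% held them at least 2 times, and 8.3% held the GAS letters. These matches describe the sequence and were not measured as binding.

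**Figure D1:**
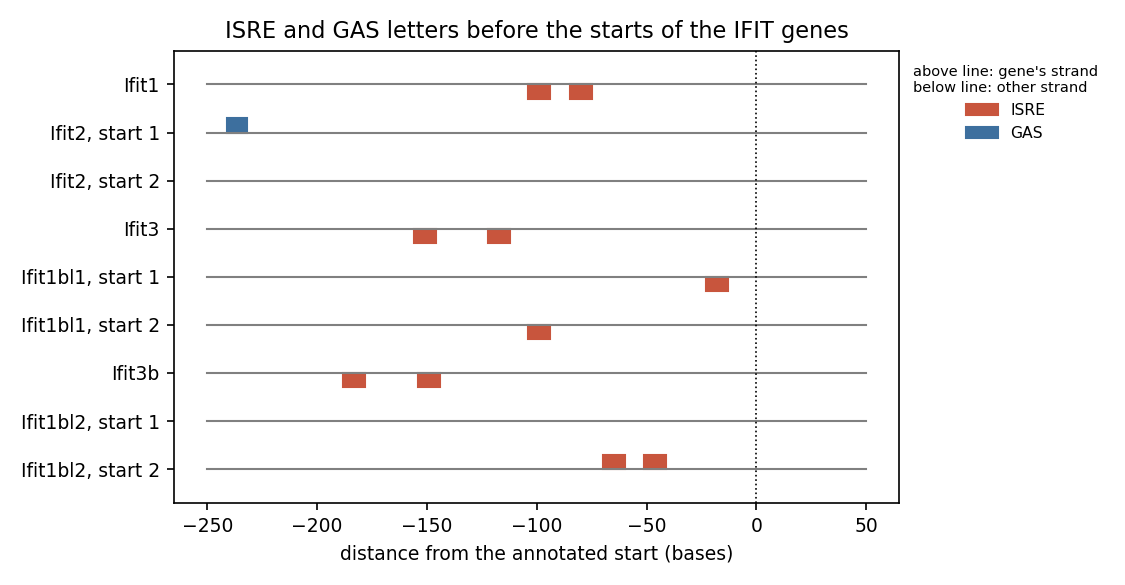
Position of ISRE letters (red) and GAS letters (blue) in the RefSeq promoter windows of the IFIT genes, by distance in bases from each annotated start, with matches on the gene's own strand above the line and on the other strand below it. Ifit1, Ifit3 and Ifit3b have 2 ISRE matches each, Ifit1bl1 has 1 before each start, and Ifit2 has none. Ifit1bl2 has 2 before start 2 and none before start 1.

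All 4 IFIT genes were lower in ECs of clodronate-liposome mice than in ECs of PBS-liposome mice, by between 3.20-fold and 4.75-fold. Each gene was measured by 1 probe set, annotated to no other gene, and signals are log2 values normalised by robust multiarray averaging (RMA). Differences are clodronate-liposome minus PBS-liposome on that scale, with adjusted p values of limma's moderated test over all 45037 probe sets. A level cannot be compared between probe sets, so only differences are set side by side. In sorted cells measured in bulk, fewer cells expressing a gene and less RNA per cell cannot be told apart.

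Ifit1 (1450783_at) had signals of 9.88, 10.70 and 10.59 on the clodronate-liposome arrays and of 12.48, 12.54 and 12.39 on the PBS-liposome arrays. The lowest PBS-liposome array stood 1.69 above the highest clodronate-liposome array. The means were 10.39 ± 0.45 in clodronate-liposome ECs and 12.47 ± 0.072 in PBS-liposome ECs (SD, n = 3 each), so that Ifit1 was 4.22-fold lower (3.03 to 5.87). On the log2 scale this was -2.08 (SE 0.21, adjusted p = 0.0155, 95% confidence interval of the difference -2.55 to -1.60).

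Ifit2 (1418293_at), the AU-rich RNA binder, had signals of 9.85, 10.67 and 10.74 on the clodronate-liposome arrays and of 12.03, 12.14 and 12.13 on the PBS-liposome arrays. The groups were apart by 1.29, the narrowest gap of the 4 genes. The means were 10.42 ± 0.50 in clodronate-liposome ECs and 12.10 ± 0.059 in PBS-liposome ECs, a log2 difference of -1.68 (SE 0.22, interval -2.19 to -1.16, adjusted p = 0.0338), or 3.20-fold lower (2.24 to 4.57). Its windows printed above are those without ISRE letters.

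Ifit3 (1449025_at) had signals of 10.79, 11.13 and 11.29 on the clodronate-liposome arrays and of 12.83, 12.91 and 12.80 on the PBS-liposome arrays, with a gap of 1.51 between the groups. Its clodronate-liposome arrays lay closer together than those of the other members. The means were 11.07 ± 0.26 in clodronate-liposome ECs and 12.85 ± 0.053 in PBS-liposome ECs, a log2 difference of -1.77 (SE 0.14, interval -2.09 to -1.46, adjusted p = 0.00687), or 3.42-fold lower (2.74 to 4.27). Ifit3b is a close mouse copy of Ifit3 with no probe set of its own, and its part in the Ifit3 signal was not tested.

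Ifit1bl1 (1435529_at) had signals of 7.64, 7.85 and 8.42 on the clodronate-liposome arrays and of 10.35, 10.46 and 9.85 on the PBS-liposome arrays. Clodronate-liposome replicates 1 and 2 were below their array's median of 8.13, whereas every PBS-liposome array was above it. The means were 7.97 ± 0.40 in clodronate-liposome ECs and 10.22 ± 0.33 in PBS-liposome ECs, a log2 difference of -2.25 (SE 0.23, interval -2.78 to -1.72, adjusted p = 0.0155), or 4.75-fold lower (3.30 to 6.86).

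**Figure D2:**
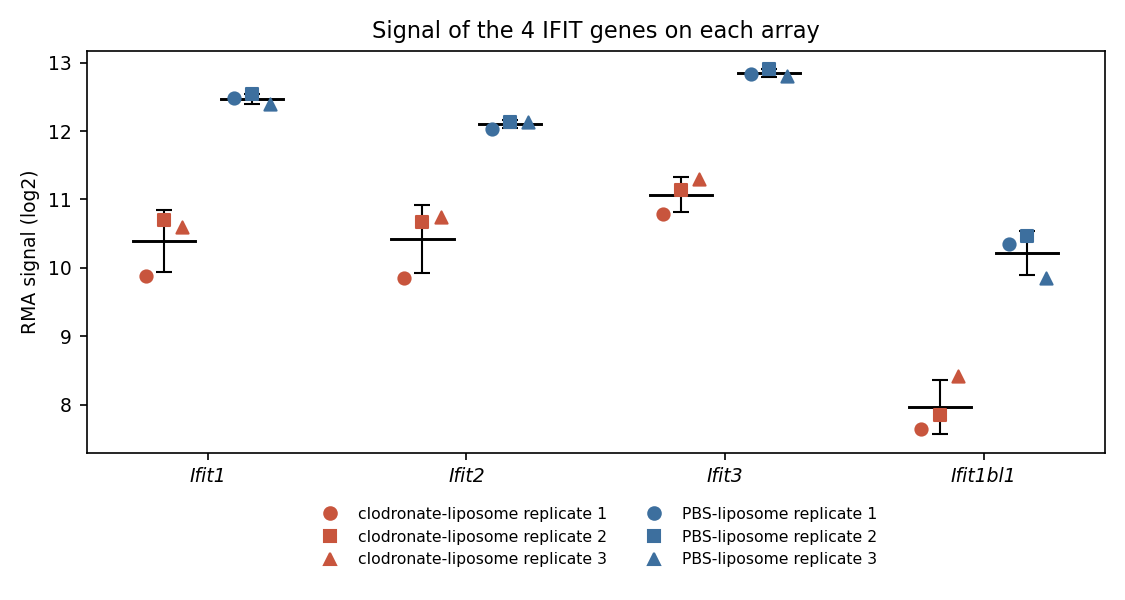
RMA signal (log2) of Ifit1, Ifit2, Ifit3 and Ifit1bl1 on each array, clodronate-liposome in red and PBS-liposome in blue, with marker shapes for replicates 1 to 3 and bars for the mean and SD. No clodronate-liposome array reaches a PBS-liposome array in any of the 4 genes, and clodronate-liposome replicate 1 is the lowest array for each.

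Of all 45037 probe sets, 107 were lower past an adjusted p of 0.05 (0.238%), and 138 passed in either direction (0.306%). All 4 IFIT probe sets were among the 107. Groups did not overlap, with clodronate-liposome lower, in 8.04% of all probe sets and in all 4 IFIT probe sets. The median log2 difference was -1.93 over the IFIT genes and -0.00014 over all probe sets. Ordered by log2 difference from the lowest, Ifit1bl1 ranked 1, Ifit1 3, Ifit3 10 and Ifit2 15 among 18193 genes. Since the family was chosen with earlier results of these data known, these shares and ranks describe it and test nothing.

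The clodronate-liposome arrays differed among themselves more than the PBS-liposome arrays did. Replicate 1 was the lowest array for every member, with deviations from the PBS-liposome mean of -2.59 for Ifit1, -2.25 for Ifit2, -2.06 for Ifit3 and -2.58 for Ifit1bl1. The smallest deviation of a member came from replicate 3 for Ifit2, Ifit3 and Ifit1bl1 (-1.36, -1.55 and -1.80) and from replicate 2 for Ifit1 (-1.76). The ratio of the clodronate-liposome SD to the PBS-liposome SD was 6.24 for Ifit1, 8.37 for Ifit2, 4.83 for Ifit3 and 1.23 for Ifit1bl1, where the median SD over all probe sets was 0.142 on clodronate-liposome arrays and 0.130 on PBS-liposome arrays. This spread was not tested.

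The sizes of the falls were compared within arrays over the 6 pairs of members. Ifit1 fell further than Ifit2 by 0.40 and further than Ifit3 by 0.30 on the log2 scale, and in both pairs the within-array values of the groups did not overlap (exact permutation test, two-sided, p = 0.1, adjusted p = 0.3). The difference between Ifit1bl1 and Ifit2 was -0.57, and between Ifit1bl1 and Ifit3 -0.47, with overlap in both (exact p = 0.2, adjusted p = 0.3). Ifit1bl1 and Ifit1 differed by -0.17 (exact p = 0.5, adjusted p = 0.6), and Ifit3 and Ifit2 by -0.096 (exact p = 0.6, adjusted p = 0.6). The smallest p that 3 arrays against 3 allow is 0.1, so an order of the 4 falls could not pass the threshold.

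The direction of all 4 differences held in every fit tried, whereas the calls at an adjusted p of 0.05 did not. With the replicate number as a block, 0 of 4 passed (adjusted p = 0.0507 for Ifit1 and Ifit3, 0.067 for Ifit2 and 0.0717 for Ifit1bl1). Without PBS-liposome replicate 2, again 0 passed, with differences of -2.04 for Ifit1, -1.66 for Ifit2, -1.75 for Ifit3 and -2.13 for Ifit1bl1 (adjusted p = 0.0729 to 0.138). Without PBS-liposome replicate 1 only Ifit3 passed (-1.78, adjusted p = 0.048), and without PBS-liposome replicate 3 Ifit3 and Ifit1bl1 did (-1.80 and -2.43, adjusted p = 0.039 each). Without clodronate-liposome replicate 1, Ifit1bl1 alone lost its call (-2.08, adjusted p = 0.0546). Leaving out clodronate-liposome replicate 2 ended the calls of Ifit2 (-1.80, adjusted p = 0.0683) and Ifit1bl1 (-2.19, adjusted p = 0.0581), and leaving out clodronate-liposome replicate 3 those of Ifit1 (-2.18, adjusted p = 0.0564) and Ifit2 (-1.84, adjusted p = 0.072).

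The spiked hybridization controls of the array averaged 11.91, 12.20 and 11.94 on clodronate-liposome replicates 1 to 3 and 12.11, 12.24 and 12.12 on PBS-liposome replicates 1 to 3, and the 18S ribosomal RNA controls 13.01, 12.33 and 13.00 on the clodronate-liposome arrays and 12.63, 12.39 and 12.56 on the PBS-liposome arrays. Clodronate-liposome replicates 1 and 3 thus stood outside the PBS-liposome range in both. With the hybridization controls as a covariate the IFIT differences were -1.84 for Ifit1, -1.48 for Ifit2, -1.70 for Ifit3 and -2.23 for Ifit1bl1, with 0 of 4 calls (adjusted p = 0.117 to 0.198). On clodronate-liposome replicate 2, whose hybridization controls lay within the PBS-liposome range and whose 18S controls lay just below it, the same genes deviated from the PBS-liposome mean by -1.76 (Ifit1), -1.43 (Ifit2), -1.71 (Ifit3) and -2.36 (Ifit1bl1).

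**Figure D3:**
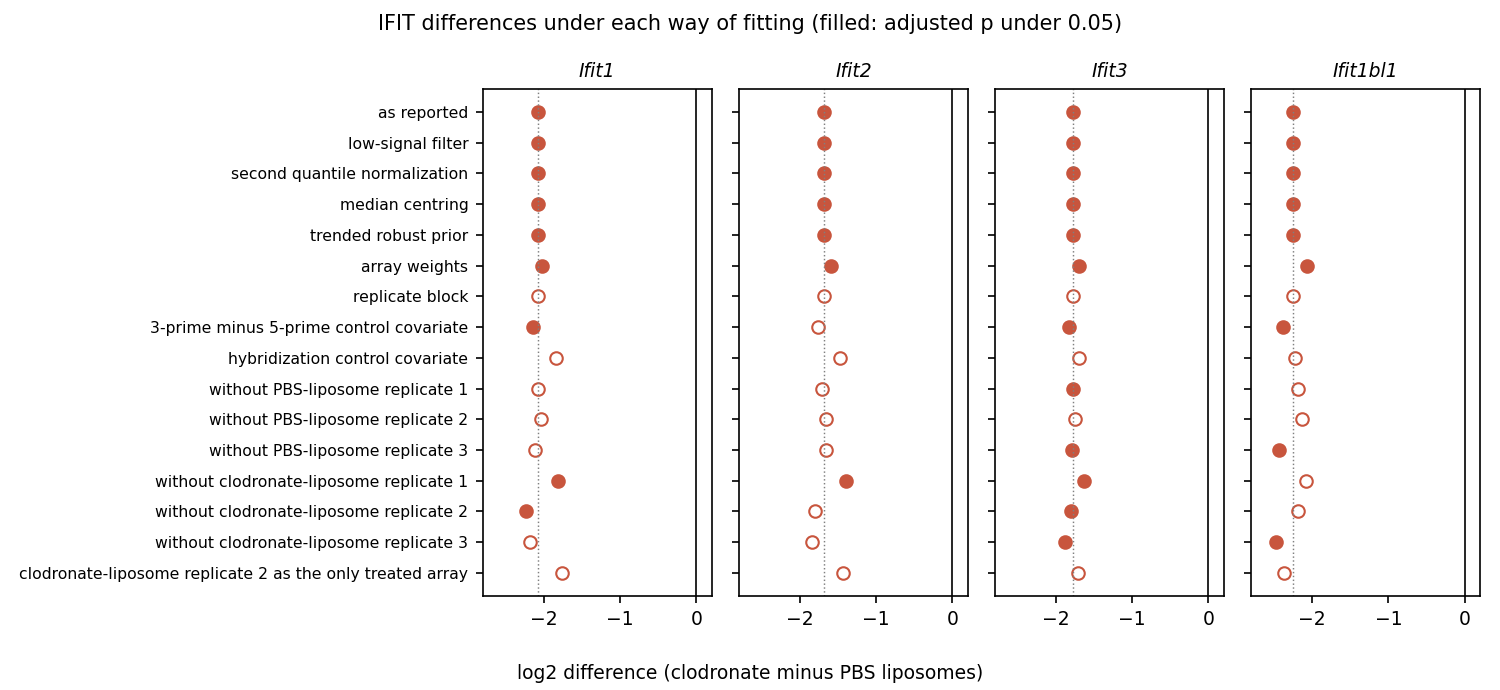
Log2 difference (clodronate-liposome minus PBS-liposome) of each IFIT gene under 16 ways of fitting, filled where the adjusted p was under 0.05, with a dotted line at the reported value and a solid line at 0. Every point lies below -1.39, and the open points show where the call was lost.

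The IFIT genes stand together in the genome. In the RefSeq order of chromosome 19, Ifit2, Ifit3, Ifit1bl1, Ifit3b, Ifit1bl2 and Ifit1 follow each other with 0 other protein-coding genes between. Ifit1bl2, another Ifit1 paralogue, had 2 probe sets. The brighter one (1457976_at) read 6.93, 7.30 and 7.27 on clodronate-liposome arrays and 7.32, 7.30 and 7.23 on PBS-liposome arrays, a difference of -0.12 (SE 0.12, interval -0.40 to 0.17, adjusted p = 0.813). The other (1438311_at) read 6.57, 6.34 and 6.26 on clodronate-liposome arrays and 6.93, 7.11 and 6.63 on PBS-liposome arrays, without overlap, a difference of -0.50 (SE 0.15, adjusted p = 0.260). All of these signals lay below the array median.

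The neighbours on either side did not pass the test. On the Ifit2 side, the log2 difference was 0.05 for Lipa, the lysosomal acid lipase, -0.37 for Ch25h, the cholesterol 25-hydroxylase (adjusted p = 0.478), and 0.02 for Fas, the death receptor. Ch25h is itself known as an interferon-induced gene. Beyond Ifit1, it was 0.70 for the transporter Slc16a12 (adjusted p = 0.259), -0.12 for the pantothenate kinase Pank1 and 0.14 for the kinesin Kif20b.

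**Figure D4:**
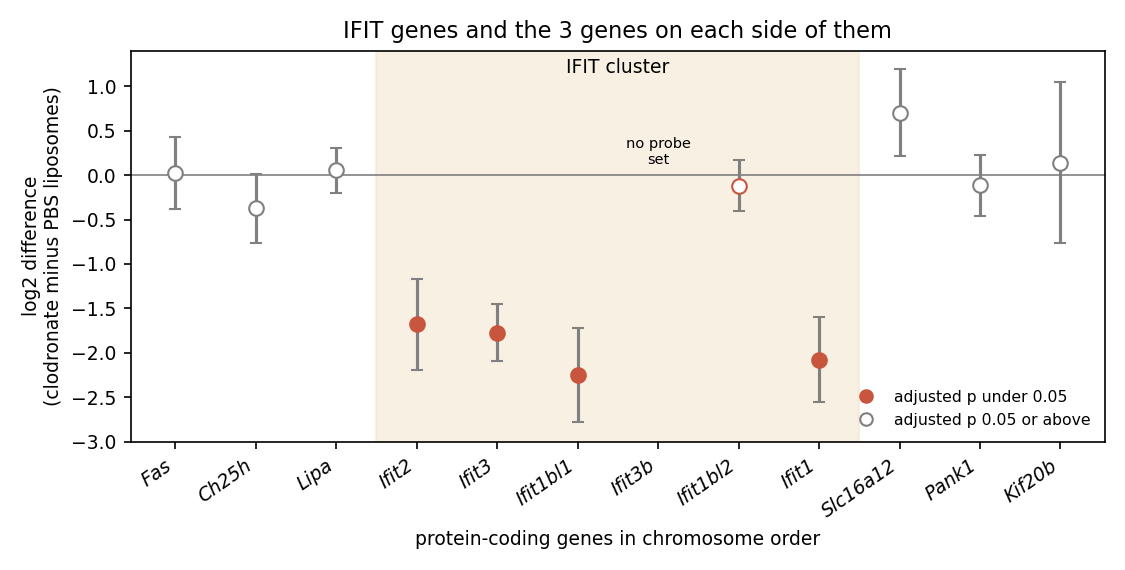
Log2 difference (clodronate-liposome minus PBS-liposome) with its 95% confidence interval for the IFIT genes (shaded) and 3 protein-coding genes on each side, in chromosome order, filled where the adjusted p was under 0.05. Each gene is drawn by its brightest probe set. The 4 filled IFIT genes lie between -2.25 and -1.68, whereas Ifit1bl2 and the 6 flanking genes lie between -0.37 and 0.70. The dimmer Ifit1bl2 probe set, not drawn, differed by -0.50.

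The promoter windows of the cluster repeat each other in part. The Ifit3 and Ifit3b windows were 94.5% identical over 274 aligned columns and both held 2 ISRE matches. The Ifit1bl1 windows matched each other at 96.6% over 179 columns. Ifit1bl2 start 2 lies on the opposite strand to Ifit1, and the windows of both share 245 bases and the same 2 ISRE matches. The log2 difference was -2.08 for Ifit1. It was -0.12 for the brighter and -0.50 for the dimmer Ifit1bl2 probe set, both with signals below the array median. Of the 23 other interferon-induced effectors listed, 8 of the 16 with a RefSeq window held the ISRE letters, as did 0 of 8 endothelial markers and 3.99% of all 27025 genes. Genes with the letters were found both with and without a call, and the relation of letters to calls was not tested. The letters were in the windows of 11 of 20 interferon genes, of which none measured passed the test. Socs1 and Irf2 held them and did not pass. They were before 0 of the 5 interferon regulatory factors listed as activators, among them Irf7, which was lower past the threshold. Of 6 receptor and signal chain genes with a window, only Stat2 held them, and it passed. Of 8 sensors and adaptors with a window, Myd88 held them and passed, and Ifih1 held them and did not. Of the effectors with the letters, Rsad2, Eif2ak2 and Trim30a passed, and Oas1a, Oas3, Bst2 and Ddx60 did not.

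Ligands came first among the pathway genes examined. Interferons are secreted by other cells as well as ECs, and 10 of the 21 listed interferon genes had a usable probe set. None passed the test, and their log2 differences ran between -0.14 and 0.23 with a median of -0.05. Those with the highest mean signal were Ifna1 (-0.07), Ifna5 (0.05) and Ifnz (-0.14). All but Ifna1 had a mean signal below the array median, where a change could go unseen. Ifnb1, which encodes interferon beta, read 7.17, 7.10 and 6.97 on clodronate-liposome arrays and 7.01, 6.92 and 6.97 on PBS-liposome arrays, all below the array median, with a difference of 0.11 (SE 0.098, adjusted p = 0.763).

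Of the receptor and its signal chain to ISGF3, 1 of 6 measured genes passed the test. Stat2, the ISGF3 subunit that carries the activation domain, averaged 9.93 ± 0.075 on clodronate-liposome arrays and 10.79 ± 0.061 on PBS-liposome arrays (SD, n = 3 each), a difference of -0.85 (SE 0.095, adjusted p = 0.0203). The groups did not overlap for Stat2, though leaving out any single array ended its call (-0.88 to -0.81, adjusted p = 0.0578 to 0.0997). Its dimmer probe set differed by -0.87 (adjusted p = 0.0656). Irf9, the DNA-binding subunit, differed by -0.73 without overlap (adjusted p = 0.117). On the brightest probe sets, differences were -0.13 for the kinase Jak1, 0.12 for the kinase Tyk2 and -0.05 for the receptor chain Ifnar2, with adjusted p of 0.679 or more. The dimmer Jak1 probe sets differed by -0.40 and -0.32 (adjusted p = 0.314 and 0.328). Those of Ifnar2 differed by 0.13 and 0.14, and that of Tyk2 by 0.17.

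Among 5 interferon regulatory factors, 1 passed. Irf7, the factor that amplifies interferon production and is itself interferon-induced, read 9.53, 9.85 and 10.11 on clodronate-liposome arrays and 11.97, 11.73 and 12.07 on PBS-liposome arrays, a 4.28-fold lower level (log2 difference -2.10, SE 0.16, adjusted p = 0.00687). This fall lay beside the -2.08 of Ifit1, and its call held without any single array (adjusted p = 0.0189 to 0.048). Irf8, a factor of myeloid cells, differed by -0.42 without overlap (adjusted p = 0.142), Irf1 by -0.16, Irf5 by -0.07 and Irf3, which is activated without new synthesis, by 0.05.

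Of 4 feedback inhibitors of the pathway, 1 passed. Usp18, the protease that removes ISG15 from proteins and blocks the interferon receptor, read 9.33, 10.41 and 10.29 on clodronate-liposome arrays and 11.93, 11.89 and 11.84 on PBS-liposome arrays, a 3.68-fold lower level (log2 difference -1.88, SE 0.26, adjusted p = 0.0374). As for the IFIT genes, clodronate-liposome replicate 1 was the lowest array. Its call was kept without clodronate-liposome replicate 1 and lost without any other single array (-2.08 to -1.54, adjusted p up to 0.148). Socs1 (-0.12) and Irf2 (-0.13) did not pass. Socs3, a suppressor of cytokine signaling, had 3 probe sets that disagreed: the brightest differed by 0.26 (adjusted p = 0.402), the others by -0.81 (adjusted p = 0.0656) and -1.66 (adjusted p = 0.00636).

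Sensors of foreign nucleic acid and their adaptors lie upstream of interferon production, and 3 of 14 passed, all lower, against 0.238% of all probe sets. Whether these falls came before or after a change in interferon was not tested. Zbp1, a sensor of Z-form nucleic acid, differed by -1.27 (SE 0.17, adjusted p = 0.0314), Dhx58, the regulatory helicase LGP2, by -1.34 (SE 0.19, adjusted p = 0.0388) and Myd88, the adaptor of Toll-like receptors, by -0.67 (SE 0.089, adjusted p = 0.0343). The dimmest of the Dhx58 probe sets differed by -0.36 only. Ifih1, the sensor MDA5, and Sting1 differed by -0.82 (adjusted p = 0.0615) and -1.07 (adjusted p = 0.142) without overlap between groups. With single arrays left out, the call of Zbp1 was kept in 2 of 6 fits (-1.41 to -1.09 over the 6 fits) and those of Dhx58 (-1.53 to -1.20) and Myd88 (-0.69 to -0.65) in 0 of 6.

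The cap-modifying enzymes, the translation factors that IFIT proteins act on and the signaling proteins Mavs and Tbk1 were listed together as IFIT partners, with 0 of 9 past the threshold, a median of 0.04 and differences between -0.42 and 0.20. Cmtr1, which adds the ribose methyl group that hides RNA from IFIT1, read 10.50, 10.39 and 10.60 on clodronate-liposome arrays and 11.03, 10.83 and 10.89 on PBS-liposome arrays. On this brightest probe set the groups did not overlap (-0.42, SE 0.10, adjusted p = 0.184). Dimmer Cmtr1 probe sets differed by -0.07, -0.27 and 0.009. Other differences were -0.22 for the cap methyltransferase Rnmt, -0.14 for Cmtr2, 0.08 for the capping enzyme Rngtt and 0.20 for Mavs, the mitochondrial adaptor, with adjusted p of 0.519 or more.

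Other interferon-induced effectors, known antiviral genes outside the IFIT cluster, were lower in all 21 measured of 23 listed, and 10 passed the test. Their median log2 difference was -0.97, with a range of -2.05 to -0.38, and no gene overlapped between groups. Of all probe sets, 0.238% were lower past the threshold and 8.04% were lower without overlap. Oasl1, an oligoadenylate synthetase-like protein, read 8.08, 7.89 and 8.39 on clodronate-liposome arrays and 10.15, 10.14 and 10.22 on PBS-liposome arrays (-2.05, SE 0.13, adjusted p = 0.00636). Rsad2, the antiviral enzyme viperin, differed by -1.55 (SE 0.22, adjusted p = 0.0435), and Samd9l, at the other end of the range, by -0.38 (SE 0.10, adjusted p = 0.223). Leaving out single arrays left 1 to 6 genes of the list called: Oasl1 in all 6 fits, Mx2 in 5 and Mx1 in 3, each of the other 7 in at most 1 (Rsad2 -1.71 to -1.26). Of the IFIT genes, Ifit2 (-1.68) and Ifit3 (-1.77) lay within the range of this list, and Ifit1 (-2.08) and Ifit1bl1 (-2.25) below it. The list was chosen, like the IFIT genes, with earlier results of these data known.

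**Figure D5:**
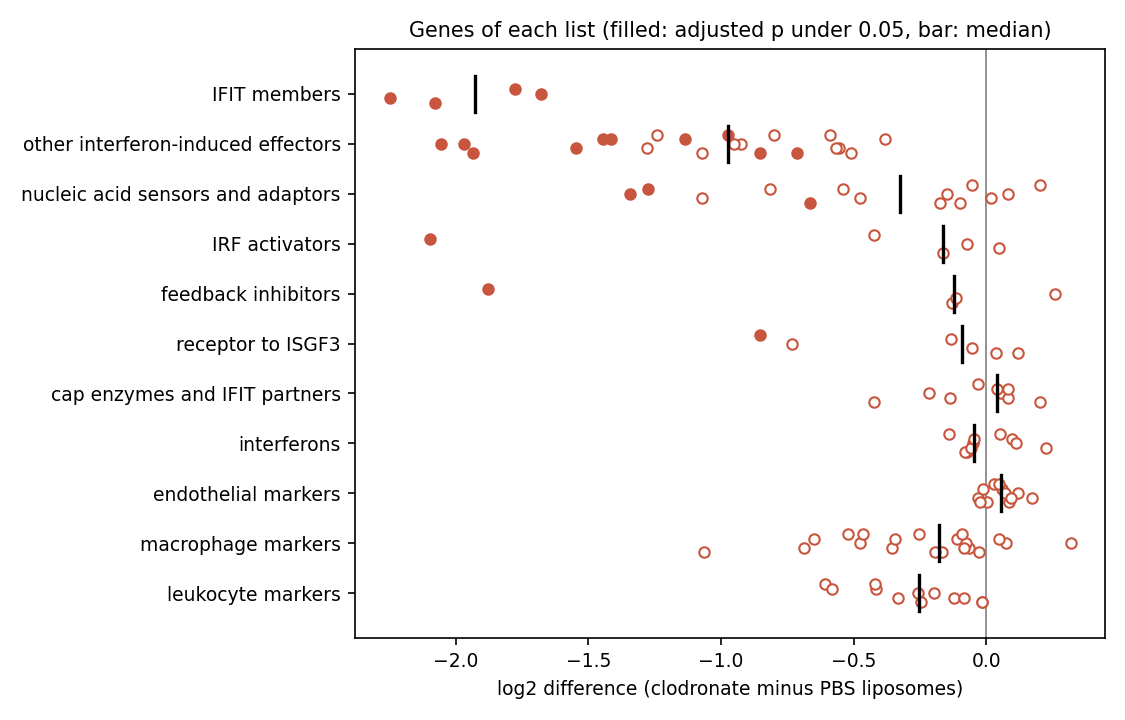
Log2 difference (clodronate-liposome minus PBS-liposome) of each gene in 11 lists, filled where the adjusted p was under 0.05, with a bar at each list's median. The 4 IFIT genes (median -1.93) lie at the left with the other effectors (median -0.97), whereas interferons, cap enzymes and endothelial markers centre near 0.

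The genes whose signal over the 6 arrays was most like the mean of the IFIT genes were searched among 906 genes with a range of at least 1 on the log2 scale. The IFIT mean itself was 9.54, 10.09 and 10.26 on clodronate-liposome arrays and 11.92, 12.01 and 11.79 on PBS-liposome arrays. Mx1, an interferon-induced antiviral GTPase, came first with a Pearson r of 0.9996, and read 7.57, 8.17 and 8.37 on clodronate-liposome arrays and 9.98, 10.10 and 9.93 on PBS-liposome arrays. It was followed by Il33, an alarmin cytokine (r = 0.998), Igtp, an interferon-induced GTPase (r = 0.9965), Slfn2, a Schlafen family gene (r = 0.9935) and Grrp1 (r = 0.9918). Since both groups share this split, r was also taken over deviations from the group means, where Mx1 again came first (r = 0.9937), before the small GTPase Rab20 (0.9881), Il33 (0.9848), Bbof1 (0.9636) and Igtp (0.9612). Bbof1 differed between the groups by only -0.07, while Il33 was lower by 0.90 (log2 difference -0.90, SE 0.12, adjusted p = 0.0374). These correlations over 6 arrays are a description and share the arrays' handling.

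The sort was checked against cell type markers. Pecam1 (CD31), the gene of the sort marker, read 13.70, 13.53 and 13.64 on clodronate-liposome arrays and 13.57, 13.50 and 13.58 on PBS-liposome arrays, and 0 of 12 endothelial markers passed the test (median 0.05). Epcam stayed at or below 7.39 on every array. Other epithelial markers were brighter and uneven: Sftpc, the surfactant protein of alveolar cells, read 8.49, 12.78 and 11.47 on clodronate-liposome arrays and 11.38, 10.14 and 11.35 on PBS-liposome arrays, and Scgb1a1, the club cell secretory protein, 11.28, 7.53 and 7.89 on clodronate-liposome arrays and 10.37, 10.06 and 8.76 on PBS-liposome arrays. The groups overlapped for both, and 0 of 7 epithelial, 0 of 7 fibroblast or mural, 0 of 5 neutrophil and 0 of 4 plasmacytoid dendritic cell markers passed. Of 20 measured macrophage markers 0 passed, with a median of -0.18, but 17 had a lower mean in clodronate-liposome ECs and 8 were lower without overlap, where 8.04% of all probe sets were. Their summed linear signal was 11602 to 12646 on clodronate-liposome arrays and 12160 to 14337 on PBS-liposome arrays. The brightest of them, Mertk (mean log2 signal 12.11), weighs most in this sum and differed by 0.07. Adgre1, a defining macrophage marker, read 7.16, 7.30 and 7.14 on clodronate-liposome arrays and 7.31, 6.94 and 7.85 on PBS-liposome arrays, all below the array median, while Csf1r, the receptor of the macrophage growth factor, read 8.09, 8.08 and 7.98 on clodronate-liposome arrays and 8.82, 8.46 and 8.81 on PBS-liposome arrays (-0.65, adjusted p = 0.101). The macrophage marker furthest from 0 was Cybb, a subunit of the phagocyte oxidase (-1.06, adjusted p = 0.0871). Of 12 leukocyte markers 0 passed (median -0.25), all 12 had a lower mean in clodronate-liposome ECs, 4 were lower without overlap, and Ptprc (CD45) differed by -0.58 (adjusted p = 0.217). Their summed signal was 16137 to 17060 on clodronate-liposome arrays and 16938 to 18629 on PBS-liposome arrays. The brightest of them, Srgn (mean log2 signal 13.43) and Lcp1 (11.60), weigh most in this sum and differed by -0.02 and -0.08. The sum therefore says little of the dimmer markers. The mean log2 signal over the macrophage markers was 8.19, 8.35 and 8.21 on clodronate-liposome arrays and 8.51, 8.34 and 8.68 on PBS-liposome arrays, and over the leukocyte markers 8.63, 8.70 and 8.62 on clodronate-liposome arrays and 8.75, 8.87 and 9.14 on PBS-liposome arrays. These markers thus moved mostly in the direction of the IFIT genes, with smaller medians. Many of them read near or below the array median, where a difference may be understated, so the sizes are not compared. The part of these markers in the IFIT difference was not tested.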

How the data were processed

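RNA of sorted lung ECs was profiled on 6 Affymetrix mouse arrays, 3 per group, from 1 ng of total RNA each. The deposited log2 signals were made by the authors by RMA in Chipster 3.8.0, per the submitters' processing notes and the study's methods, and were used as deposited; scanner files were not used here. RMA equalizes the arrays' distributions, so a shift common to most genes could not be seen. Manufacturer's controls (64 probe sets) were set aside and 45037 probe sets were tested in R 4.3.3 by the moderated two-sided test of limma 3.58.1 (4 residual degrees of freedom), with Benjamini-Hochberg adjustment and a threshold of 0.05. Of these, 34945 had 1 symbol in the platform annotation, 932 several and 9160 none. The script was tested on simulated data. Outside the IFIT family a gene was read from its brightest probe set. Members and lists were chosen with earlier results of these data known. The genes named were all members, list genes past the threshold or up to 5 per list with the smallest p, the 3 brightest interferons, the 5 genes most like the IFIT mean by each measure, and 6 checks of the sort. Ifnb1, the effectors and genes with disagreeing probe sets were named after their values were seen. Precision is limited by 3 arrays per group, and p values measure the spread between these replicates. Alternatives were a low-signal filter, other normalization, priors and weights, control covariates, a replicate block, each array left out, and other probe set rules.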

Additional observations from a re-analysis of the deposited data

How the results depend on the processing

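None of the 4 IFIT differences changed sign in 15 alternative fits. Other probe set rules could not change them, because each member has 1 probe set. The low-signal filter, second quantile normalization, median centring, trended robust prior and array weights kept all 4 calls. With the replicate block 0 of 4 were called (Ifit1 -2.08, Ifit2 -1.68, Ifit3 -1.77, Ifit1bl1 -2.25). Deviations of same-numbered arrays correlated at 0.075, 0.070 and 0.036, and those of different-numbered arrays at -0.058 to -0.0065. These values are not independent, since with each group centred on its mean a positive value forces a negative one elsewhere. Whether the replicate numbers pair the samples was not tested. With the hybridization control covariate 0 were called (Ifit1 -1.84, Ifit2 -1.48, Ifit3 -1.70, Ifit1bl1 -2.23), and with the 3′ minus 5′ control covariate Ifit2 lost its call (-1.76, adjusted p = 0.0599). With replicate 2 standing alone for the clodronate-liposome group, an alternative chosen after seeing the data that takes its spread from the PBS-liposome arrays, 0 were called (Ifit1 -1.76, Ifit2 -1.43, Ifit3 -1.71, Ifit1bl1 -2.36). Leaving out each array gave 0 to 3 calls and differences of -2.23 to -1.82 for Ifit1, -1.84 to -1.39 for Ifit2, -1.88 to -1.63 for Ifit3 and -2.47 to -2.08 for Ifit1bl1. The difference between Ifit1bl1 and Ifit1 turned to 0.042 without clodronate-liposome replicate 2, and with single arrays left out was lowest without PBS-liposome replicate 3 (-0.319). The other effectors gave 10 calls, 16 with the low-signal filter, 17 with the trended robust prior, 4 with the 3′ minus 5′ covariate and 0 with the block or the hybridization covariate. Over all probe sets, 138 calls became 244 with the filter, 248 with the trended robust prior, 234 with array weights, 43 with the 3′ minus 5′ covariate, 6 to 73 without single arrays, and 0 with the block (5033 at an unadjusted p under 0.05), the hybridization covariate (4710) or 1 treated array (3964). The cause of these changes was not tested. Signals near or below the array median, as for Ifit1bl1 and Ifit1bl2, may understate a difference.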
